A study of Schizosaccharomyces pombe with 78 samples.

Results

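The 5 genes described here make up the supply line of DNA precursors in the fission yeast *Schizosaccharomyces pombe* as far as ribonucleotide reductase and its control are concerned. They are *cdc22* (SPAC1F7.05), *suc22* (SPBC25D12.04), *spd1* (SPAC29B12.03), *cdt2* (SPAC17H9.19c) and *dut1* (SPAC644.05c), taken by name from the 12683 features of the deposited expression table. All 5 were among the 7429 features that passed a minimum mean of 10 normalized counts and were tested. Poly(A) RNA was sequenced from 3 strains, each growing asynchronously and at 12 times, 0 to 220 min after release from a G2 block, with 2 replicates of each of the 39 conditions and 78 libraries in all. All 3 strains were haploid (h-), carried the temperature-sensitive *cdc25-22* allele and an HA tag on Nrm1, a corepressor of the G1/S transcription factor MBF, and were grown in minimal medium. Nrm1 denotes the strain with the wild-type protein (WT in the labels), Nrm1-SA the strain whose CDK1 phosphorylation sites in Nrm1 were changed to alanine (labelled 11A), and Nrm1-SD the strain in which the same sites were changed to acidic residues (labelled 11D). Cells were held at 36 °C for 4 h, where *cdc25-22* cells stop in G2, and released at 25 °C, with a sample every 20 min. Each mutation is represented by 1 strain. The study calls the replicates biological, but neither it nor the labels describe how the pairs were grown, so p-values measure the spread between these libraries. The 2 Nrm1-SD libraries at 220 min differed more from each other than any other pair, with a chi-square of their counts per degree of freedom of 16.1 against 1.77 to 6.8 in the other 37 unmerged pairs. The results in Nrm1-SD that use this time are therefore also given without the pair.

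Ribonucleotide reductase converts ribonucleotides into the deoxyribonucleotides that DNA polymerases use, and its activity is raised for S phase. Cdc22 is the large subunit, which binds substrates and allosteric effectors, and Suc22 is the small subunit, which carries the radical cofactor. Spd1 is a small protein that restrains the reductase. It is destroyed in S phase and after DNA damage by a Cul4 ubiquitin ligase for which Cdt2 is the substrate adaptor. Dut1 is the dUTPase that keeps uracil out of DNA and provides the precursor of dTTP. MBF binds the MCB element, ACGCGT, and *cdc22* is one of its classical targets.

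*cdc22* lies on chromosome I at 4226970-4229989, *spd1* at 5412443-5413219 and, both on the reverse strand, *cdt2* at 2033768-2035704 and *dut1* at 2678518-2679108, while *suc22* lies on chromosome II at 3721623-3723072. These are coordinates of whole transcripts in the RefSeq build ASM294v3, matched by systematic identifier, because the count table carries none. The upstream sequences are shown because 3 of the 5 genes hold 3 or more matches to the MCB core next to the transcript start and these are the genes whose levels moved together. Capitals mark every match to the MCB core ACGCG on either strand, and a full ACGCGT holds the core on both. The first pair runs from position -300 to -1 before the annotated start, the *dut1* stretch, which holds 2 of its 3 core matches, from -80 to -51 and the *suc22* stretch from -600 to -541.
cdc22 (chrI:4226670-4226969, forward strand): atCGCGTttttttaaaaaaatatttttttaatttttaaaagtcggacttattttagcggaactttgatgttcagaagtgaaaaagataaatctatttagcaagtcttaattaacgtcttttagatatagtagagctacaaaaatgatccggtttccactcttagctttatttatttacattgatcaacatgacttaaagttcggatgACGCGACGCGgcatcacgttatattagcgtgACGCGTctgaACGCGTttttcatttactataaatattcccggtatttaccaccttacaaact
cdt2 (chrI:2035705-2036004, reverse strand): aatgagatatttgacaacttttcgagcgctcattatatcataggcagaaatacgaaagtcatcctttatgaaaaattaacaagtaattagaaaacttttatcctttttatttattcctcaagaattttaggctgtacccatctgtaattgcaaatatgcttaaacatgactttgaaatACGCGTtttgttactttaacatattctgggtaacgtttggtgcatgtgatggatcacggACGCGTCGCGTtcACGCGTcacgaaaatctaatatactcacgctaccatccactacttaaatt
dut1 (chrI:2679159-2679188, reverse strand): taaacaaACGCGACGCGccgtcaaccgcaa
suc22 (chrII:3721023-3721082, forward strand): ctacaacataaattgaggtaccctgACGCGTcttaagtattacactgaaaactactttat

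In the 300 bases before the start, *cdc22* held 2 full MCB elements and 5 stretches of the core, *cdt2* held 3 and 4, and *dut1* held no full element but 3 stretches of the core. No match was found in that window for *suc22* or *spd1*. Of 5113 protein-coding genes, 2.89% held a full ACGCGT in the same window and 10.6% at least 1 stretch of the core, and 19 genes (0.372%) held 3 or more stretches, the 3 members included. In 1000 bases *suc22* had 1 full element, at position -575, and *spd1* still had none, where 6.69% of genes held a full element. A match describes the letters only, and its binding was not measured here. The window of *dut1* overlaps the 3′ end of *pct1*, which is transcribed from the other strand.

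**Figure D1:**
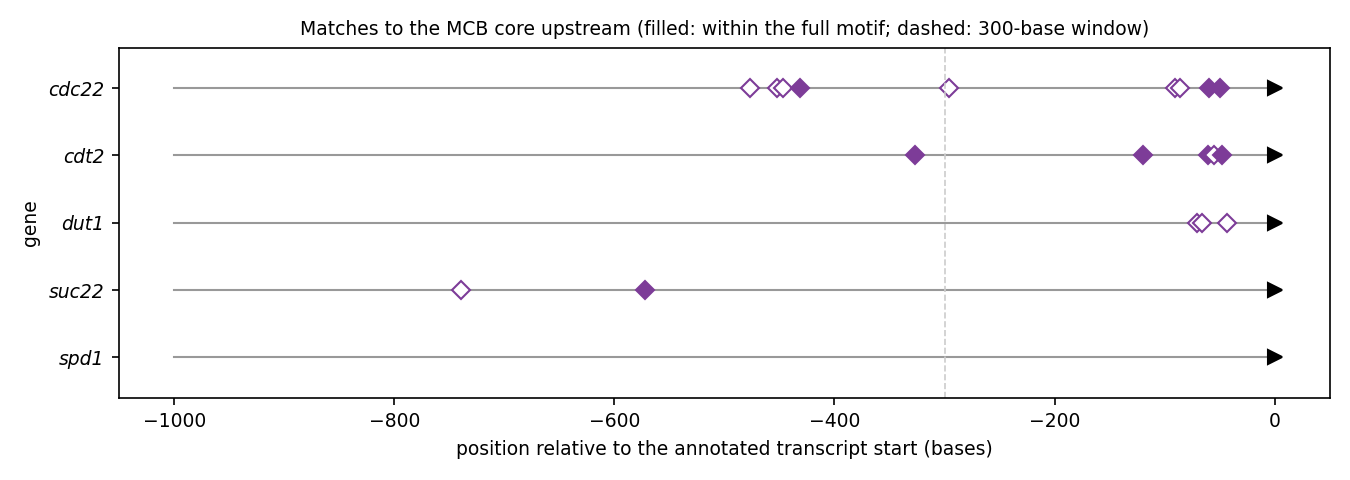
Positions of MCB core matches in the 1000 bases upstream of the annotated start (x axis, bases; arrowhead, start) for the 5 genes (y axis). Filled diamonds lie within a full element and open ones do not; the dashed line marks the 300-base window, in which *cdc22*, *cdt2* and *dut1* have 5, 4 and 3 stretches and *suc22* and *spd1* have none.

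In Nrm1 cells the transcripts of the large subunit, the ligase adaptor and the dUTPase rose and fell together. That of the inhibitor Spd1 was highest where they were low, at 120 min, but at the block it was low along with *cdc22* and *cdt2*. The transcript of the small subunit stayed close to level after the first 40 min. The 2 Nrm1 libraries had 3070 and 3179 normalized *cdc22* counts at 0 min, 26631 and 26761 at 60 min, 4577 and 4357 at 120 min, and 24503 and 26214 at 200 min. The values at 60 and 200 min were thus far above those at the block and at 120 min in both replicates. *cdt2* had 170 and 173 normalized counts at 0 min, 1733 and 1753 at 60 min, 177 and 185 at 120 min, and 1346 and 1330 at 180 min. Its highest value was 10.2 and 10.1 times its lowest in the 2 series, the widest range among the 5 genes. *dut1* had 610 and 713 normalized counts at 0 min, 1343 and 1472 at 60 min, 356 and 282 at 120 min, and 1487 and 1738 at 180 min. Unlike *cdc22* and *cdt2*, it was lowest at 120 min rather than at the block. *spd1* had 152 and 205 normalized counts at 0 min, 110 and 96.1 at 20 min, 714 and 790 at 120 min, and 165 and 191 at 180 min. Its highest time point was thus the lowest one of *dut1*, and its values at 20 to 60 min lay below all those at 100 to 140 min. *suc22* had 3824 and 3680 normalized counts at 0 min and 3073 and 3167 at 20 min, and then stayed between 2155 and 2687 from 40 to 220 min.

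**Figure D2:**
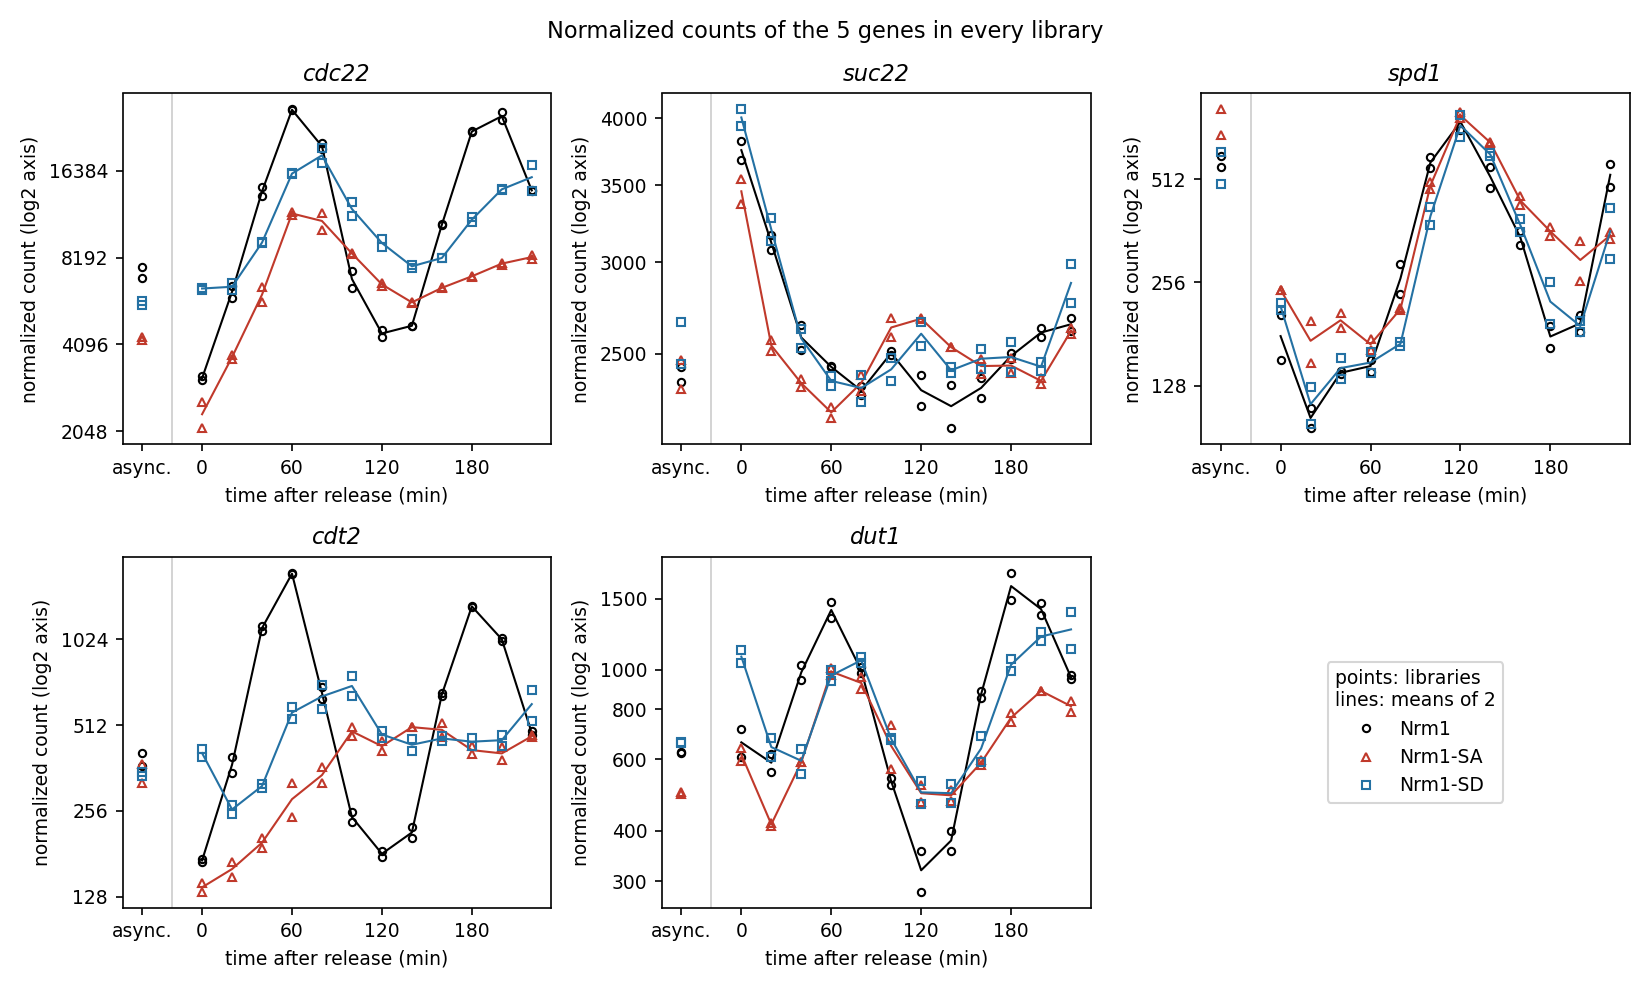
Normalized counts (log2 axis) of each gene against time after release (min), with the asynchronous cultures at the left; points are libraries and lines the means of the 2 replicates of Nrm1, Nrm1-SA and Nrm1-SD. In Nrm1, *cdc22*, *cdt2* and *dut1* peak at 60 and at 180 to 200 min and *spd1* at 120 min; *cdt2* has no such peaks in Nrm1-SA.

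A wave with a period of 120 min was fitted to each strain, and a feature was called when its limma adjusted p was under 0.1 and its fitted peak-to-trough at least 1 on the log2 scale, which 8.28% of all features met in Nrm1. There, 4 of the 5 members were called. The fit took the time points of a replicate series as independent libraries. Its p-values thus make no allowance for dependence within a series. The fitted peak came at 60.9 min for *cdt2* (peak-to-trough 3.04, adjusted p = 5.02e-10), 66.2 min for *dut1* (1.83, adjusted p = 9.82e-07), 66.5 min for *cdc22* (2.68, adjusted p = 2.22e-10) and 117.6 min for *spd1* (1.56, adjusted p = 0.00195). *suc22* had a peak-to-trough of 0.19 (adjusted p = 0.225). The *cdt2* peak came earlier than that of *cdc22* in both replicate series, at 61.1 and 60.6 min against 66.7 and 66.3 min. Without replicate 2, *spd1* missed the threshold in Nrm1 at a peak-to-trough of 1.49 (adjusted p = 0.103). As landmarks, 4 genes of cytokinesis peaked at 59.2 to 79.0 min in Nrm1 and 4 S-phase histone genes at 88.6 to 91.4 min, so *cdc22*, *cdt2* and *dut1* peaked with the former and *spd1* after the latter.

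In Nrm1-SA 3.97% of all features met the same rule and in Nrm1-SD 7.19%. *cdt2* was called in neither: its peak-to-trough was 0.13 in Nrm1-SA (adjusted p = 0.887) and 0.79 in Nrm1-SD (adjusted p = 0.00251, under the size minimum). *cdc22* kept a called wave in both mutants, with a peak-to-trough of 1.22 in Nrm1-SA (adjusted p = 0.00376) and 1.26 in Nrm1-SD (adjusted p = 1.05e-06). *dut1* had 1.06 in both (adjusted p = 1.77e-06 and 0.000909). The fitted peaks of *cdc22* moved from 66.5 min in Nrm1 to 72.7 min in Nrm1-SA and 78.7 min in Nrm1-SD, and those of *dut1* to 76.3 and 81.4 min. The histone genes peaked at 91.4 to 93.9 min in Nrm1-SA and 97.1 to 100.6 min in Nrm1-SD. The cytokinesis genes peaked at 59.2 to 79.0 min in Nrm1, 59.0 to 77.9 min in Nrm1-SA and 63.4 to 81.4 min in Nrm1-SD. Landmarks outside the 5 genes were thus late in Nrm1-SD as well, the cytokinesis genes by less than the histone genes. The part of this delay in the later *cdc22* peak was not tested. *spd1* was called in all 3 strains, with 1.18 in Nrm1-SA (adjusted p = 0.00776, peak at 126.8 min) and 1.55 in Nrm1-SD (adjusted p = 0.00127, peak at 125.8 min). With either replicate left out, the Nrm1-SA calls were lost for *cdc22* (adjusted p = 0.12 and 0.193) and *spd1* (adjusted p = 0.177 and 0.138), as were those of *dut1* in Nrm1-SD without replicate 1 (adjusted p = 0.12) and of *spd1* in Nrm1-SD without replicate 2 (adjusted p = 0.15). With a period of 110 min the Nrm1-SA waves of *cdc22*, *dut1* and *spd1* were 0.94, 0.95 and 0.83, under the size minimum, and the Nrm1-SD wave of *cdc22* was 1.00 after rounding and also missed it. With a period of 130 min *dut1* had 1.00 after rounding in Nrm1-SA and 0.93 in Nrm1-SD, and both calls were lost. Without a trend term *spd1* had 0.79 in Nrm1-SA (adjusted p = 0.211). With both Nrm1-SD libraries at 220 min left out, the waves in that strain were 1.27 for *cdc22*, 1.05 for *dut1*, 1.75 for *spd1* and 0.79 for *cdt2*, and no call among them changed.

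Compared per kilobase of annotated exon, so that genes of different length can be set side by side, the transcript of the large subunit went from below that of the small subunit at the block to well above it in each G1/S window. In Nrm1 the level of *cdc22* per kilobase was 0.43 and 0.463 times that of *suc22* at 0 min, 5.87 and 5.89 times at 60 min, and 1.02 and 1.04 times at 120 min. The 2 subunit transcripts were thus near parity per kilobase in the trough, and at 20 min, where the ratio was 1.03 and 1.11. In Nrm1-SA this ratio was 2.8 and 2.81 at 60 min and 1.57 and 1.53 at 180 min, where Nrm1 had 4.9 and 4.77. In Nrm1-SD it was 0.878 and 0.836 at 0 min, above both Nrm1 values, and 3.68 and 3.58 at 60 min. Between its extremes the log2 ratio spanned 3.77 and 3.67 in Nrm1, 3.14 and 2.77 in Nrm1-SA, and 2.33 and 2.30 in Nrm1-SD, with no overlap between strains. The lowest value lay at 0 min, the block, in every series. From 20 min on, the log2 ratio ran from 0.03 and 0.05 to 2.55 and 2.56 in Nrm1. It ran from -0.32 and -0.39 to 1.49 and 1.49 in Nrm1-SA, and from 0.04 and 0.19 to 2.14 and 2.04 in Nrm1-SD. The spans of the mutants thus overlapped once the block was left out. *suc22* exceeded the inhibitor transcript *spd1* per kilobase in every library, by 1.8 and 1.53 times at 120 min in Nrm1 and by 8.58 and 9.31 times at 60 min. The log2 ratio of *spd1* to *cdt2*, the inhibitor to the adaptor of its ligase, went from -2.19 and -2.33 at 60 min to 3.33 and 3.41 at 120 min in Nrm1. In Nrm1-SA it stayed positive throughout, with its lowest values at 0.54 and 0.45. These are transcript ratios, and protein was not measured. With 2 libraries against 2, an exact permutation test cannot reach a p of 0.05, so the ratios are given as values.

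**Figure D3:**
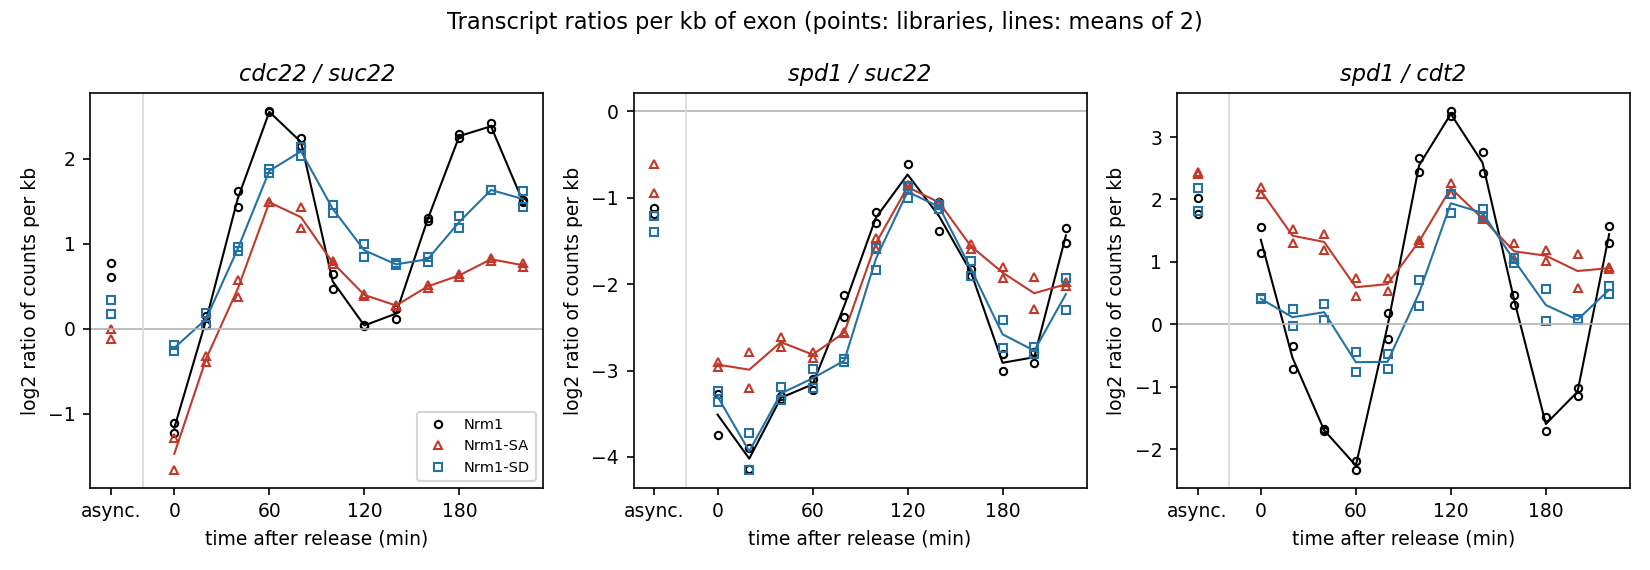
Log2 ratios of normalized counts per kb of exon against time after release (min), for *cdc22* over *suc22*, *spd1* over *suc22* and *spd1* over *cdt2*; points are libraries of Nrm1, Nrm1-SA and Nrm1-SD and lines the means of 2. The *spd1* to *cdt2* ratio crosses 0 in Nrm1 and stays above it in Nrm1-SA.

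The asynchronous cultures show the strains without a synchronizing step. *cdc22* was lower in Nrm1-SA, at 4230 and 4340 normalized counts, than in Nrm1, at 6943 and 7593, and Nrm1-SD lay between them at 5776 and 5619. The 3 strains did not overlap. The difference was -0.76 on the log2(normalized count + 1) scale in Nrm1-SA (SE 0.0802, limma adjusted p = 3.33e-10) and -0.35 in Nrm1-SD (SE 0.0802, adjusted p = 0.00765). *dut1* was 493 and 498 in Nrm1-SA against 622 and 625 in Nrm1, a difference of -0.33 (adjusted p = 0.0232). *spd1* went the other way in Nrm1-SA, at 687 and 817 against 599 and 554 (0.38, adjusted p = 0.0882). *cdt2*, which differed most over the cycle, differed by only -0.16 (adjusted p = 0.376) in Nrm1-SA and -0.17 (adjusted p = 0.612) in Nrm1-SD, and *suc22* by 0.00 and 0.09 (adjusted p = 0.997 and 0.582). Called in either direction were 3 of 5 members in Nrm1-SA, where 13.8% of all features were, and 1 of 5 in Nrm1-SD, where 2.4% were. The calls of *spd1* and *dut1* in Nrm1-SA were not firm. Leaving out Nrm1 replicate 2 gave 0.32 (adjusted p = 0.522) and -0.33 (adjusted p = 0.164). Leaving out Nrm1-SA replicate 2 gave 0.25 (adjusted p = 0.606) and -0.34 (adjusted p = 0.185). That of *spd1* was also lost without Nrm1 replicate 1 (0.43, adjusted p = 0.114), with asynchronous libraries only (adjusted p = 0.141) and with no filter on low values (adjusted p = 0.128), and that of *dut1* without Nrm1-SA replicate 1 (-0.32, adjusted p = 0.12). The *cdc22* call in Nrm1-SD was lost without Nrm1 replicate 2 (-0.29, adjusted p = 0.432).

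The next comparison set the G2 block against the asynchronous culture of the same strain. At the block Nrm1 cells had less *cdc22*, *cdt2* and *spd1* and more *suc22* than growing cells. The differences on the log2 scale were -1.22 for *cdc22* (SE 0.0802, limma adjusted p = 2.39e-18), -1.17 for *cdt2* (SE 0.104, adjusted p = 7.75e-14), -1.70 for *spd1* (SE 0.144, adjusted p = 1.62e-14) and 0.64 for *suc22* (SE 0.0518, adjusted p = 3.05e-15). *dut1* differed by 0.08 (adjusted p = 0.5), and by 0.21 with scaling to library totals (adjusted p = 0.0342). Among all features 59.6% were called in Nrm1, 55.6% in the SA strain and 59.7% in the SD strain, so a call in this comparison is common. The block was at 36 °C and the asynchronous cultures were not, and 8 heat shock genes were higher at 0 min in Nrm1 (8 of 8 called higher, median 0.66) and in Nrm1-SD (8 of 8, median 0.99). In Nrm1-SA 6 of 8 were called higher and 1 lower, with a median of 0.38. Position in the cycle and temperature therefore cannot be told apart for these differences. *suc22* rose at the block of the mutants as well, by 0.53 in Nrm1-SA (adjusted p = 2.99e-12) and 0.65 in Nrm1-SD (adjusted p = 2.46e-15), and *spd1* fell by 1.62 (adjusted p = 1.22e-13) and by 1.34 (adjusted p = 3.66e-11). In Nrm1-SA *cdc22* fell by 0.88 (adjusted p = 2.92e-13) and *cdt2* by 1.33 (adjusted p = 1.66e-15). *dut1* rose by 0.32 in Nrm1-SA (adjusted p = 0.00634), a call lost without Nrm1-SA replicate 1 (0.26, adjusted p = 0.177), and by 0.70 in Nrm1-SD (adjusted p = 3.58e-08).

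At the block Nrm1-SD cells held more transcript of *cdc22*, *cdt2* and *dut1* than the other strains. At 0 min *cdc22* had 6449 and 6346 normalized counts in Nrm1-SD against 3070 and 3179 in Nrm1 and 2092 and 2593 in Nrm1-SA. *cdt2* had 421 and 396 in Nrm1-SD against 170 and 173 in Nrm1, and *dut1* had 1038 and 1119 against 610 and 713. For all 3 genes every Nrm1-SD library lay above every library of the other strains at this time. Nrm1-SD exceeded Nrm1 by 1.03 for *cdc22* (SE 0.0802, limma adjusted p = 2.72e-14), 1.24 for *cdt2* (SE 0.104, adjusted p = 3.67e-13) and 0.71 for *dut1* (SE 0.0981, adjusted p = 1.11e-06), on the log2 scale. These 3 were the members called, where 2.03% of all features were. Outside the members, 2 of 4 histone genes (median 0.44) and *nrm1* (1.15) were called higher in Nrm1-SD as well. No mitosis or cytokinesis gene was called there. *spd1* differed by 0.30 (adjusted p = 0.468) and *suc22* by 0.09 (adjusted p = 0.562). In Nrm1-SA 4.52% of all features were called. There *cdc22* had -0.42 against Nrm1 (adjusted p = 0.000343), *cdt2* -0.32 (adjusted p = 0.0888) and *spd1* 0.46 (adjusted p = 0.0642), and *dut1* and *suc22* were not called (-0.10 and -0.12, adjusted p = 0.775 and 0.268). The *cdt2* call was lost with edgeR (adjusted p = 0.205) and DESeq2 (adjusted p = 0.347), and with no filter on low values those of *cdt2* and *spd1* were both lost (adjusted p = 0.135 and 0.101). Without Nrm1-SA replicate 1 all 3 were lost, at -0.27 for *cdc22* (adjusted p = 0.249), -0.26 for *cdt2* (adjusted p = 0.403) and 0.46 for *spd1* (adjusted p = 0.303). The *cdt2* call was also lost without Nrm1 replicate 1 (adjusted p = 0.242), Nrm1 replicate 2 (adjusted p = 0.635) or Nrm1-SA replicate 2 (adjusted p = 0.149), and the *spd1* call without Nrm1 replicate 1 (0.25, adjusted p = 0.558) or Nrm1-SA replicate 2 (0.47, adjusted p = 0.339).

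The response to the block itself, 0 min minus asynchronous in a mutant less the same in Nrm1, was tested after these values had been seen. In Nrm1-SD it was 1.38 for *cdc22* (SE 0.113, limma adjusted p = 3.68e-13), 1.41 for *cdt2* (SE 0.147, adjusted p = 8.92e-10) and 0.62 for *dut1* (SE 0.139, adjusted p = 0.013), where 0.956% of all features were called. The response of *nrm1* was 1.10 and also called, and 1 of 4 histone genes was called higher. Within Nrm1-SD the block changed *cdc22* by 0.17 (adjusted p = 0.074) and *cdt2* by 0.24 (adjusted p = 0.0463) instead of lowering them. These small within-strain calls were lost without Nrm1-SD replicate 1 (adjusted p = 0.176 and 0.193) or replicate 2 (adjusted p = 0.219 and 0.12), and that of *cdc22* also without either Nrm1 replicate (adjusted p = 0.104 and 0.104) and with edgeR (adjusted p = 0.156). The *dut1* difference in response was lost without Nrm1 replicate 1 (0.51, adjusted p = 0.158). In Nrm1-SA no member was called, where 3.24% of all features were, and *cdc22* came closest (0.34, adjusted p = 0.121). That value passed in 5 of 17 alternatives, the lowest adjusted p being 0.0258 with scaling to library totals. It was the 1 member whose unadjusted limma p was under 0.05 there, and edgeR and DESeq2 called none of the 5.

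In the first G1/S window, 60 and 80 min, *cdc22* and *cdt2* were lower in Nrm1-SA at both times, and in Nrm1-SD at 60 min. At 60 min *cdc22* had 11500 and 11803 normalized counts in Nrm1-SA and 16070 and 15990 in Nrm1-SD, against 26631 and 26761 in Nrm1. *cdt2* had 243 and 320 in Nrm1-SA and 540 and 594 in Nrm1-SD, against 1733 and 1753. The strains were ordered the same way for both genes at 60 min and did not overlap. At 80 min *cdc22* had 11733 and 10221 in Nrm1-SA and 19687 and 17402 in Nrm1-SD, against 20410 and 19471 in Nrm1. *cdt2* had 364 and 320 in Nrm1-SA and 709 and 583 in Nrm1-SD, against 695 and 634. Nrm1-SD thus overlapped Nrm1 at 80 min for both genes, while Nrm1-SA stayed below. *dut1* in Nrm1-SD had 938 and 999 at 60 min, against 1343 and 1472 in Nrm1, and 1038 and 1074 at 80 min, above the 1014 and 981 of Nrm1. Over both time points the difference to Nrm1 was -1.03 (SE 0.0567, limma adjusted p = 1.07e-20) for *cdc22* and -1.80 (SE 0.0734, adjusted p = 4.31e-26) for *cdt2* in Nrm1-SA, and -0.42 (adjusted p = 2.8e-07) and -0.83 (adjusted p = 1.04e-12) in Nrm1-SD. *dut1* changed less, by -0.30 in Nrm1-SA (adjusted p = 0.000847) and -0.23 in Nrm1-SD (adjusted p = 0.0887), the latter lost without either Nrm1 replicate (adjusted p = 0.224 and 0.466), without either Nrm1-SA replicate (adjusted p = 0.142 and 0.142) without Nrm1-SD replicate 1 (adjusted p = 0.373) or with no filter on low values (adjusted p = 0.133). Called were 24.2% of all features in Nrm1-SA and 2.23% in Nrm1-SD, against the same 3 of 5 members in each. *spd1* and *suc22* were not called in this window in either mutant, with *spd1* at -0.04 and -0.29 (adjusted p = 0.846 and 0.172). The 4 histone genes were lower as well (4 of 4 called in each mutant, medians -0.36 in Nrm1-SA and -0.58 in Nrm1-SD). None of the 4 cytokinesis genes was called. Of the 4 mitosis genes, 2 were called higher in Nrm1-SA (median 0.14) and 1 in Nrm1-SD (median 0.18). The part of the landmarks in the result was not tested.

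In the trough, 120 and 140 min, the same 3 genes stood higher in both mutants than in Nrm1. At 120 min *cdt2* had 415 and 449 normalized counts in Nrm1-SA and 490 and 460 in Nrm1-SD, against 177 and 185 in Nrm1. *cdc22* had 6675 and 6545 in Nrm1-SA and 9473 and 8934 in Nrm1-SD, against 4577 and 4357. Both mutants lay above Nrm1 for both genes. Over the window *cdt2* was 2.36 and 2.3 times its level in Nrm1 (limma adjusted p = 4.34e-17 and 1.37e-18), and the log2 differences were 0.42 and 0.86 for *cdc22* (adjusted p = 1.58e-06 and 2.22e-17) and 0.51 and 0.52 for *dut1* (adjusted p = 1.82e-06 and 3.03e-07), in Nrm1-SA and Nrm1-SD in that order. *suc22* was slightly higher, by 0.19 (adjusted p = 0.000509) and 0.13 (adjusted p = 0.0422), so that 4 of 5 members were called in each mutant, where Nrm1-SA had 23.2% of all features called and Nrm1-SD 2.42%. The *suc22* call in Nrm1-SD was lost without Nrm1 replicate 2 (0.08, adjusted p = 0.774), Nrm1-SD replicate 2 (0.12, adjusted p = 0.168) or either Nrm1-SA replicate (0.13, adjusted p = 0.118 and 0.119). For Nrm1-SA at 140 min, the counts of the 2 libraries agreed within sampling noise, so the pair was averaged and counted as 1 sample. Landmark genes moved in this window too. In Nrm1-SA 4 of 4 cytokinesis genes (median 1.21), 3 of 4 histone genes (0.31) and 2 of 4 mitosis genes (0.34) were called higher, and in Nrm1-SD 4 of 4 histone genes (0.37) and no cytokinesis gene (-0.05). Their part in the result was not tested.

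In the second window, 180 and 200 min, the 3 genes were again lower in the mutants, and the inhibitor transcript stood apart in Nrm1-SA. At 180 min *spd1* had 371 and 350 normalized counts in Nrm1-SA against 165 and 191 in Nrm1, and at 200 min 337 and 258 against 184 and 205. All 4 Nrm1-SA values lay above all 4 of Nrm1. The difference was 0.81 (SE 0.102, limma adjusted p = 7.67e-09), while Nrm1-SD had 0.15 (adjusted p = 0.572), with 194 and 256 at 180 min and 184 and 198 at 200 min. *cdc22* was at 7032 and 7074 in Nrm1-SA at 180 min against 22598 and 22272 in Nrm1, and the window differences were -1.68 (SE 0.0567, adjusted p = 4.29e-30) in Nrm1-SA and -0.93 (adjusted p = 1.2e-18) in Nrm1-SD. *cdt2* differed by -1.50 (adjusted p = 7.06e-23) and -1.38 (adjusted p = 5.3e-21), and *dut1* by -0.87 (adjusted p = 9.93e-15) and -0.43 (adjusted p = 1.07e-05). At 220 min, after the window, *dut1* had 1127 and 1392 in Nrm1-SD against 969 and 948 in Nrm1. There *cdc22* had 13958 and 17189 against 13998 and 14032, and *cdt2* 531 and 683 against 489 and 472. These Nrm1-SD values come from the pair of libraries that differed most. The part of a later peak in the window differences was not tested. All 5 members were called in Nrm1-SA, where 37.6% of all features were, and 3 of 5 in Nrm1-SD, where 4.39% were. The fifth call in Nrm1-SA, *suc22* at -0.08 (adjusted p = 0.0782), was lost without any 1 of the 4 Nrm1 and Nrm1-SA replicates (adjusted p = 0.168 to 0.325) with scaling to library totals (adjusted p = 0.166) and with no filter on low values (adjusted p = 0.109). The histone genes were called lower in both mutants here as well (4 of 4, medians -0.44 and -0.51), as was 1 of 4 cytokinesis genes in each, and their part was not tested.

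**Figure D4:**
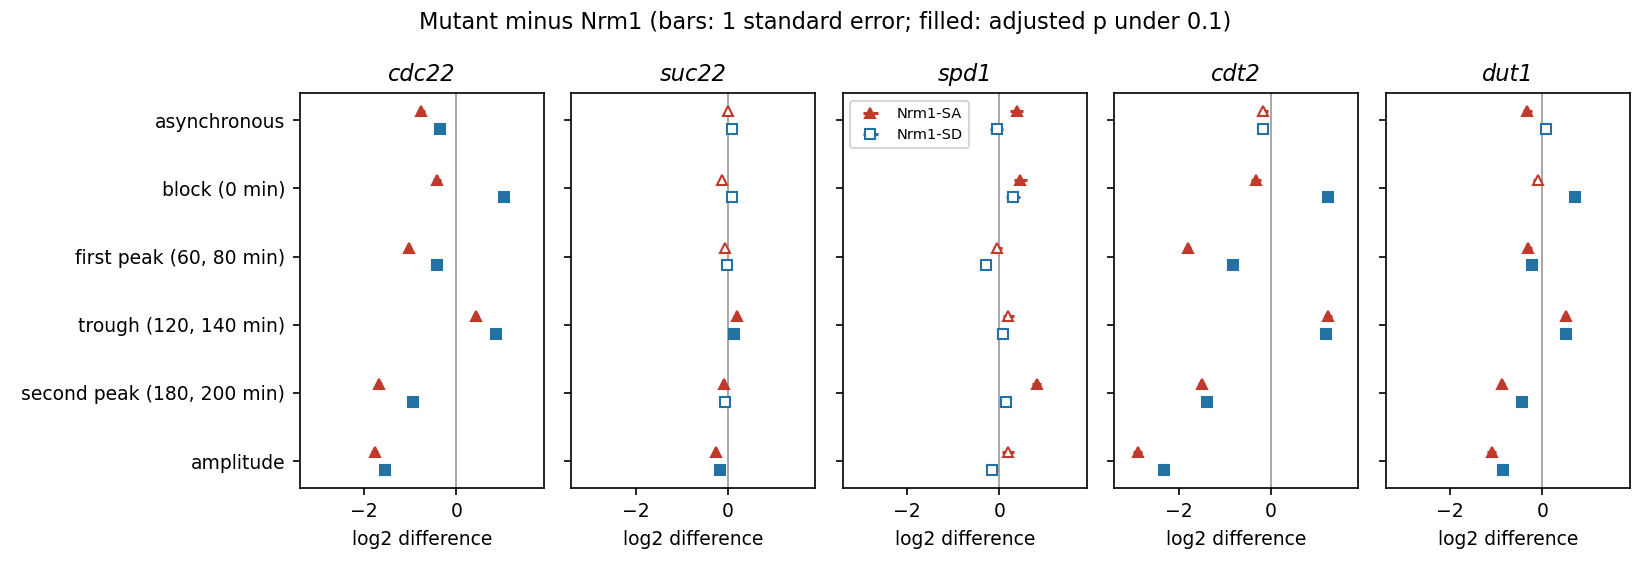
Differences between each mutant and Nrm1 (x axis, log2 of normalized count + 1) in 6 comparisons (y axis) for the 5 genes; bars show 1 standard error and filled symbols an adjusted p under 0.1. *cdc22*, *cdt2* and *dut1* lie below 0 in both peak windows and above 0 in the trough in both mutants.

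Whether the second window differed from the first was tested after both had been seen. In Nrm1-SA the shortfall of *cdc22* grew by -0.65 (SE 0.0802, limma adjusted p = 6.83e-08) and that of *dut1* by -0.57 (SE 0.0981, adjusted p = 6.89e-05), and *spd1* rose by 0.85 relative to Nrm1 (SE 0.144, adjusted p = 5.16e-05). *cdt2* went the other way, at 0.29 (SE 0.104, adjusted p = 0.0864), a call that was lost without any 1 of the Nrm1 or Nrm1-SA replicates (0.26 to 0.33, adjusted p = 0.235 to 0.415) and with no filter on low values (adjusted p = 0.136). In Nrm1-SD *cdc22* had -0.51 (SE 0.0802, adjusted p = 0.000166) and *cdt2* -0.54 (SE 0.104, adjusted p = 0.00277), the latter lost without Nrm1 replicate 1 (-0.58, adjusted p = 0.123) or replicate 2 (-0.51, adjusted p = 0.452). *spd1* was at 0.45 (adjusted p = 0.336) and passed without Nrm1-SD replicate 1 (0.63, adjusted p = 0.0596). Of all features, Nrm1-SA had 8.26% called and Nrm1-SD 0.431%. From 120 to 220 min *cdc22* was highest at 220 min, the last sample, in both Nrm1-SA series (8073 and 8375). In Nrm1-SD it was highest at 200 min in replicate 1 (14065) and at 220 min in replicate 2 (17189). The part of timing and synchrony in these differences was not tested.

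The amplitude, the mean of 60, 80, 180 and 200 min less that of 120 and 140 min, brings these windows together. In Nrm1 it was 2.50 for *cdt2*, 2.35 for *cdc22*, 1.95 for *dut1*, 0.11 for *suc22* and -1.71 for *spd1*. For *cdt2* it was -0.39 in Nrm1-SA, so that its trough stood above its peaks, and 0.19 in Nrm1-SD. The difference to Nrm1 was -2.89 (SE 0.0971, limma adjusted p = 2e-29) in Nrm1-SA and -2.31 (SE 0.0899, adjusted p = 9.41e-27) in Nrm1-SD. *cdc22* had an amplitude of 0.57 in Nrm1-SA and 0.81 in Nrm1-SD, differences of -1.77 (SE 0.075, adjusted p = 1.91e-25) and -1.54 (SE 0.0694, adjusted p = 3.94e-24). *dut1* had 0.85 and 1.10, differences of -1.10 and -0.85 (adjusted p = 1.77e-13 and 8.28e-11). The study chose its genes from these libraries by peaks in these windows and altered levels in the mutants, and the 5 genes were taken with results known, so the lower amplitude is a description and not independent evidence. *spd1* kept its opposite amplitude in both mutants, at -1.52 for Nrm1-SA and -1.87 for Nrm1-SD, with differences of 0.19 (SE 0.134, adjusted p = 0.543) and -0.16 (SE 0.124, adjusted p = 0.845). With the peaks taken at 40, 60, 180 and 200 min the Nrm1-SA value passed (0.38, adjusted p = 0.0834). *suc22* differed by -0.26 (SE 0.0484, adjusted p = 0.000223) and -0.17 (SE 0.0448, adjusted p = 0.0484). Its call in Nrm1-SA was lost without Nrm1 replicate 2 (-0.19, adjusted p = 0.138), and that in Nrm1-SD in 7 of 19 alternatives, among them the omission of each single replicate other than Nrm1 replicate 1 (adjusted p = 0.14 to 1). Among all features 6.04% were called in Nrm1-SA and 1.48% in Nrm1-SD. Landmark genes had lower amplitudes as well. In Nrm1-SA it was called lower for 4 of 4 cytokinesis genes (median -1.40), 4 of 4 histone genes (-0.69) and 2 of 4 mitosis genes (-0.23), and in Nrm1-SD for 4 of 4 histone genes (-0.92) and no cytokinesis gene (-0.22). Their part in the lower amplitude of the 5 genes was not tested.

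Set directly against each other, the mutants differed in amplitude for 1 of 5 members, where 2.23% of all features were called. *cdt2* was 0.58 higher in Nrm1-SD than in Nrm1-SA (SE 0.0971, limma adjusted p = 8.58e-05). *cdc22* had 0.24 (SE 0.075, adjusted p = 0.112), which passed with DESeq2 (adjusted p = 0.0693), with a minimum mean of 50 (adjusted p = 0.0838) with all 78 libraries (adjusted p = 0.0486) and without the Nrm1-SD pair at 220 min (adjusted p = 0.0387). *dut1* had 0.25 (SE 0.0918, adjusted p = 0.217) and *spd1* -0.35 (SE 0.134, adjusted p = 0.239).

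A test over all 12 time points, which uses no windows, asked whether a gene's time course had another shape in a mutant than in Nrm1. The genes were taken with results of these libraries known, so its calls, like the amplitudes, are descriptions and not independent evidence. In Nrm1-SA all 5 members were called, where 13.9% of all features were, from *cdt2* (F = 156, limma adjusted p = 6.21e-31) and *cdc22* (F = 81.4, adjusted p = 1.18e-24) to *dut1* (F = 25.4, adjusted p = 5.3e-14), *spd1* (F = 10.2, adjusted p = 2.21e-07) and *suc22* (F = 7.3, adjusted p = 1.81e-05). In Nrm1-SD 4 of 5 were called, where 3.02% of all features were, and *suc22* was not (F = 2.29, adjusted p = 0.345). The *spd1* call in Nrm1-SD (F = 5.38, adjusted p = 0.00137) was lost without Nrm1 replicate 2 (F = 3.58, adjusted p = 0.183). Without the 2 Nrm1-SD libraries at 220 min, and with that time left out of the test, the same 4 were called in Nrm1-SD, from *cdt2* (F = 178) and *cdc22* (F = 123) to *dut1* (F = 31.2) and *spd1* (F = 5.14, adjusted p = 0.00296). For *spd1*, Nrm1-SA parted from Nrm1 near both ends of the time course. At 20 min *spd1* had 197 and 149 normalized counts in Nrm1-SA against 110 and 96.1 in Nrm1. Nrm1-SD, with 99.1 and 127, overlapped Nrm1 there. At 220 min *spd1* had risen again to 487 and 567 in Nrm1 but stood at 343 and 359 in Nrm1-SA. In Nrm1-SD it had 300 and 422 at that time, in the pair of libraries that differed most. For *cdt2*, the Nrm1-SA series climbed from 133 and 143 at 0 min to 470 and 504 at 100 min and then stayed between 386 and 521 until 220 min. In Nrm1-SD it reached 760 and 646 at 100 min, 40 min after the Nrm1 maximum, and 531 and 683 at 220 min.

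Over the 39 condition means, *cdc22* correlated with *cdt2* at Pearson r = 0.85 and with *dut1* at 0.79, and *cdt2* with *dut1* at 0.68. *spd1* correlated with *dut1* at -0.53, with *cdc22* at -0.31 and with *cdt2* at -0.13. The conditions share strains, block and size factors, so these values are descriptions. Over the 38 conditions without Nrm1-SD at 220 min they were, in the same order, 0.85, 0.78, 0.68, -0.55, -0.32 and -0.14. The 3 of 4925 other protein-coding genes whose profile was most like that of *cdc22* were *tos4*, annotated as a transcription factor (r = 0.96), *mrc1*, the replication checkpoint mediator claspin (0.94), and *ssb1*, a subunit of the single-strand binding protein RPA (0.93). For *cdt2* they were *cdc18* (0.92) and *cdt1* (0.89), which load the replicative helicase, and *ams2*, the GATA factor of the histone genes (0.92). For *dut1* the most similar were *mrc1* (0.89) and SPBC31F10.17c (0.87). *spd1* was most like *ypt5* (0.91), the AMP-activated kinase gene *ssp2* (0.90) and SPBC8E4.04 (0.89), and *suc22* like *oar2* (0.90), *sod2* (0.89) and *erg1* (0.88). In their 300 bases upstream, *tos4*, *mrc1*, *ssb1*, *cdc18*, *ams2* and *cdt1* held 2 to 6 stretches of the MCB core, whereas the 3 genes most like *spd1*, the 3 most like *suc22* and SPBC31F10.17c held none.

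Annotated features that overlap a member bear on its counts, and the strand option of HTSeq is not given in the sources used here. The noncoding RNA SPNCRNA.3891 spans all of *cdc22* on the other strand (chrI:4225255-4230412). It had 92.5 to 485 normalized counts in the Nrm1 libraries and followed *cdc22* over the 12 time points at r = 0.98, with an amplitude of 1.88 in Nrm1 and differences of -1.41 and -1.11 in Nrm1-SA and Nrm1-SD. Without strand, a *cdc22* read would overlap both features, and how such reads were treated is not given. *cdc22* had 3070 or more normalized counts in every Nrm1 library. *dut1* lies wholly within the 3′ part of *pct1*, which encodes the RNA triphosphatase of mRNA capping, on the other strand. *pct1* had 281 to 492 normalized counts in Nrm1, with an amplitude of 0.03 and differences of 0.02 and 0.01 in the mutants, none of them called (adjusted p = 0.633, 0.946 and 1). *cdt2* shares 188 bases of the same strand with SPAC17H9.18c, whose 7 to 93.7 normalized counts in Nrm1 followed *cdt2* at r = 0.99. SPNCRNA.6251, opposite *suc22*, had 7.02 to 22.5. *suc22* is known to have a shorter and a longer transcript, and the gene-level counts cannot separate them.

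Of 32 other gene names of the pathway, 29 distinct genes were found and tested. They cover the Cul4 ligase and its signalosome, the Spd1-like inhibitor gene *spd2*, the thioredoxin and glutaredoxin systems that feed electrons to the reductase, and enzymes of nucleotide synthesis. In asynchronous Nrm1-SA 2 of the 29 were called higher and 4 lower, where 13.8% of all features were called, and in amplitude 0 higher and 2 lower, where 6.04% were, with list medians of -0.07 and -0.05 against 0.03 and 0.00 over all features. In Nrm1-SD none of the 29 was called in either comparison by limma, edgeR or DESeq2 (limma medians -0.02 and -0.00), and 3 and 2 had an unadjusted limma p under 0.05. The 6 largest of the 8 calls in Nrm1-SA were the thioredoxin gene *trx1* (amplitude -0.46, limma adjusted p = 0.00267), the signalosome gene *csn71* (amplitude -0.35, adjusted p = 0.0405), the glutaredoxin gene *grx1* (asynchronous 0.31, adjusted p = 0.0611), *spd2* (asynchronous 0.29, adjusted p = 0.027), the GMP synthase gene *gua2* (asynchronous -0.28, adjusted p = 0.00285) and the IMP dehydrogenase gene *gua1* (asynchronous -0.26, adjusted p = 0.0323). In the second window of Nrm1-SA 10 of the 29 were lower and 3 higher, with *gua1* at -0.59, *gua2* at -0.43, *grx1* at 0.55 and *spd2* at 0.40 (adjusted p = 7.75e-12, 1.01e-10, 7.67e-08 and 1.48e-06), where 37.6% of all features were called. At the block of Nrm1 cells 17 were higher and 7 lower than in growing cells, where 59.6% of all features were called. *spd2* rose there by 1.53 (adjusted p = 2.53e-20), while *spd1* fell.

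The libraries held 2685381 to 10469416 reads assigned to features, with a median of 5818955, and no member had fewer than 79 reads in a library. *nrm1* itself, whose protein was altered, was detected in every library, at 274 to 1295 normalized counts in Nrm1, 237 to 865 in Nrm1-SA and 361 to 2382 in Nrm1-SD. The point mutations cannot be seen in gene counts. Of the mating-type markers, the M-factor gene *mfm2* was at 161 to 855 in Nrm1 and 308 to 1326 in Nrm1-SA but at 3.94 to 49 in Nrm1-SD, and the receptor gene *map3* had a median of 115 in Nrm1-SD against 57.4 in Nrm1. *mfm1*, *mfm3*, *mam2* and *map2* were at medians of 3.26 to 38.8 in Nrm1 and 3.37 to 32 in Nrm1-SD. All 3 strains are given as h- in the strain list, and the part of this difference in the results for Nrm1-SD was not tested.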

How the data were processed

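RNA was made into stranded poly(A) libraries and sequenced as paired reads. Per the study and the submitters' processing notes, reads were checked with FastQC, trimmed with Trimmomatic, aligned with STAR and counted per gene with HTSeq, and the authors deposited a table of DESeq2-normalized counts (a signal: counts divided by a size factor per library). Dividing by the smallest step of each library gave whole reads (100% of values within 0.001), used for the edgeR (4.0.16) and DESeq2 (1.42.0) alternatives. Main values come from limma (3.58.1, trend) on log2(normalized count + 1), with 1 mean per condition over 77 libraries, after the 2 near-identical libraries of Nrm1-SA at 140 min were averaged. Libraries of a time course entered as independent. An alternative with strain and replicate number as a random block estimated a correlation of 0.0485 within a block. Features needed a mean of 10 normalized counts. Benjamini-Hochberg adjustment ran over all 7429, with a threshold of 0.1 as in the study. The tests were checked on simulated counts. Levels per kilobase, motifs and positions use RefSeq ASM294v3 (12602 of 12683 identifiers matched), while the notes name an earlier build for the alignment. The named genes are the 5 members, per member the 3 protein-coding genes with the most similar profile (1 of them is not reported here), features that overlap a member, up to 6 pathway genes called in the asynchronous or amplitude comparison by size, and *nrm1*. Members, lists and tests were chosen with earlier results of these data known. The block response, the second-minus-first window and the fits without Nrm1-SD at 220 min were added after seeing the data.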

Additional observations from a re-analysis of the deposited data

Results flagged for a closer look

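The effect of the block differed between Nrm1-SD and Nrm1 by a test of the difference itself for *cdc22* (1.38 on the log2 scale), *cdt2* (1.41) and *dut1* (0.62, lost without Nrm1 replicate 1 at 0.51). The block lowered *cdc22* by 2.32-fold in Nrm1 and left it 1.12-fold higher in Nrm1-SD.

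The effect of a mutation differed between the second and the first G1/S window, and the part of timing and synchrony in this was not tested. In Nrm1-SA the values were -0.65 for *cdc22*, -0.57 for *dut1*, 0.85 for *spd1* and 0.29 for *cdt2*, and in Nrm1-SD -0.51 for *cdc22* and -0.54 for *cdt2*. Those of *cdt2* were lost when single replicates were left out (0.26 to 0.33 for Nrm1-SA, -0.58 and -0.51 for Nrm1-SD).

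The amplitude of *cdt2* differed between the mutants, being 0.58 higher in Nrm1-SD than in Nrm1-SA. The 2 Nrm1-SD libraries at 220 min differed most within a pair, and leaving both out turned no called result of the 5 genes into an uncalled one.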

How the results depend on the processing

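Of 1925 recomputed values of the 5 genes, 1837 kept their direction where called and their side of the threshold, 76 lost a call, 12 gained one, and none that was called changed sign. The lowered amplitudes of *cdc22*, *cdt2* and *dut1* held in all 19 alternatives, at -1.86 to -1.45, -3.27 to -2.83 and -1.25 to -0.81 in Nrm1-SA and at -1.66 to -1.29, -2.76 to -2.04 and -1.05 to -0.74 in Nrm1-SD. The calls lost came mainly from fits that left out a replicate, where the lone library is assumed to vary like the others. Counts of called features moved by over 1.5 times as follows. With edgeR, 644 instead of 1027 were called in asynchronous Nrm1-SA, 51 instead of 178 in asynchronous Nrm1-SD, and for the block response 136 instead of 241 in Nrm1-SA and 26 instead of 71 in Nrm1-SD. With DESeq2 these 4 counts were 489, 43, 89 and 18, and 92 instead of 151 were called at the block in Nrm1-SD. With asynchronous libraries only, 276 and 36 were called in Nrm1-SA and Nrm1-SD. A pseudocount of 5 gave 101 in asynchronous Nrm1-SD and 38 for its block response, and a minimum mean of 50 gave 68 and 37. With all 78 libraries, 687 instead of 449 were called in the amplitude of Nrm1-SA and 304 instead of 166 between the mutants, where leaving out the Nrm1-SD pair at 220 min, an alternative chosen after seeing the data, gave 260. Leaving out 1 replicate gave 245 to 1361 features in asynchronous Nrm1-SA and 76 to 320 in Nrm1-SD, 117 to 480 and 72 to 304 at the block, 1115 to 2154 and 85 to 199 in the first peak, 89 to 217 in the trough of Nrm1-SD, 1804 to 3093 and 134 to 427 in the second peak, 163 to 665 and 53 to 118 in amplitude, and 79 to 309 between the mutants. It gave 2746 to 4371 for the block against asynchronous Nrm1-SA, 45 to 395 and 21 to 150 for the block response, 179 to 911 and 10 to 45 for the second minus the first window, 282 to 1585 and 63 to 1449 for the shape over time, and 114 to 168 and 292 to 339 for the wave in the mutants. The lowest of these counts came mostly without Nrm1 replicate 2 and the highest without an Nrm1-SD replicate, 1449 being the count without Nrm1-SD replicate 1. The causes were not tested. Deviations of same-numbered libraries of Nrm1 and a mutant correlated at -0.114 to 0.23 (median 0.0259, over 0.1 in 7 of 25 comparisons). These values cannot settle whether the replicate numbers pair libraries, because they compare only libraries of different strains. With the replicate number as a block no member's call changed in 110 values, and 1110 instead of 1027 features were called in asynchronous Nrm1-SA. No member had fewer than 79 reads in a library, so depth limits mainly the low-count features.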
